A study of Mus musculus with 6 samples.

Results

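Cells that divide copy their DNA in S phase and part the copies in mitosis, and the genes that serve these steps are transcribed mostly in dividing cells. The proliferation genes described here are 40 genes of these phases, listed by name and kept where their mean value over the 6 libraries was 20 or more. All 40 met that rule, of 47729 genes in the table. By textbook role, 15 of them were assigned to S phase and 25 to mitosis. The values come from 3 Control and 3 LS1 mice of generation F13, from different families and all 14 days old. Control is the random-bred line, labelled Control (ICR), and LS1 is Longshanks line 1, bred from the same CD-1 stock for a tibia that is long relative to body mass. The labels name no engineered allele and no agent in either group. Each library held polyadenylated RNA from the proximal epiphyses of both tibiae of 1 mouse, in which growth plate, metaphysis, articular cartilage, the secondary ossification center and marrow lay together. LS1 is 1 selected line, so a difference between the groups covers everything in which the lines differ.

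Before S phase the MCM helicase is loaded on replication origins, the step called licensing, and cyclin E then helps to start synthesis. Entry into mitosis needs cyclin B with its kinase Cdk1, after which the kinetochore, the spindle and their checkpoint part the chromosomes. In the growth plate the flat chondrocytes of the columns divide, and in the marrow beside it erythroid, myeloid and lymphoid precursors divide too. Many S phase genes are known to be switched on through E2F sites in their promoters, and many mitosis genes through a pair of elements named the CHR and the CCAAT box.

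RefSeq promoter windows (GRCm38.p6) of 300 bases, from 250 before to 50 after a start, were at hand for 32 of the 40 members, the others being *Tpx2*, *Aurkb*, *Gins2*, *Mcm4*, *Kif20a*, *Ccne2*, *Ccna2* and *Foxm1*. The windows were searched on both strands for an E2F site as TTTCGCGC, TTTGGCGC or TTTCCCGC, for the CHR as TTTGAA or TTCGAA, and for the CCAAT box as CCAAT. E2F letters were in 6 of 12 S phase members and in 1 of 20 mitosis members, against 1.84% of all 32851 windows. CHR letters were in 2 of 12 S phase members and in 16 of 20 mitosis members, against 19.2% of all windows. CCAAT letters were in 8 of 12 and 18 of 20, against 37.4%. The same 16 mitosis members that held the CHR also held CCAAT, a pair found in 7.52% of all windows. In 1 member window, that of *Mcm7*, an E2F match overlapped a CCAAT match. E2F letters were thus mostly in S phase members and CHR letters mostly in mitosis members, in a measure that does not come from these mice. A match is a description of letters and was not tested as a binding site.

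**Figure D1:**
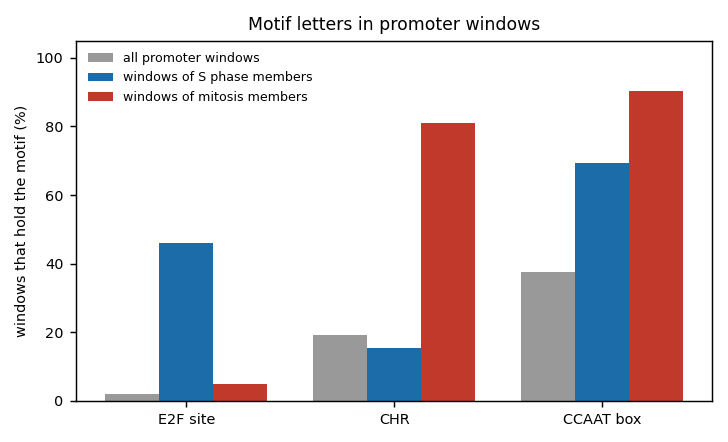
Bars give the percentage of RefSeq promoter windows that hold each motif, for all 32851 windows, for windows of S phase members and for windows of mitosis members. E2F letters are in 46.2% of S phase member windows against 1.84% of all windows, and CHR letters in 81.0% of mitosis member windows against 19.2% of all windows.

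The bases from 170 to 6 before the start are shown for a pair of S phase members with E2F letters and for 4 mitosis members with CHR letters, which differed widely in fold change. Capitals mark every match of the 3 motifs, and overlapping matches run together. The stretches are those of *Mcm5* (chr8:75109339-75109503, plus strand), *Mcm6* (chr1:128359711-128359875, minus strand), *Ube2c* (chr2:164769759-164769923, plus strand), *Cdk1* (chr10:69352918-69353082, minus strand), *Kif11* (chr19:37376212-37376376, plus strand) and *Top2a* (chr11:99024195-99024359, minus strand), each read 5′ to 3′ on its own strand.
Mcm5: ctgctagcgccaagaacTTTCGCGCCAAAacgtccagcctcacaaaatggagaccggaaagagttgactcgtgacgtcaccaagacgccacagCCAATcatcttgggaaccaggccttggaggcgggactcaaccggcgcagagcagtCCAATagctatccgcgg
Mcm6: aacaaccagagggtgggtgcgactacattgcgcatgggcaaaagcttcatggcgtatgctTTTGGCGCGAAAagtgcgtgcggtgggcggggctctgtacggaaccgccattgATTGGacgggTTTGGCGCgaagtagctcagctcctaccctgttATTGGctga
Ube2c: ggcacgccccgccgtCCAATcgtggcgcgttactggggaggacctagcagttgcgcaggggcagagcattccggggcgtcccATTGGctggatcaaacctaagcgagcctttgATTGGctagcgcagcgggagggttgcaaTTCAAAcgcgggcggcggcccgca
Cdk1: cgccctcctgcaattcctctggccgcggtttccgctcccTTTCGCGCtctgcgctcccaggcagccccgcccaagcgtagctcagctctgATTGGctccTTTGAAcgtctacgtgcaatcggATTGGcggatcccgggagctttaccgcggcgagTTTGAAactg
Kif11: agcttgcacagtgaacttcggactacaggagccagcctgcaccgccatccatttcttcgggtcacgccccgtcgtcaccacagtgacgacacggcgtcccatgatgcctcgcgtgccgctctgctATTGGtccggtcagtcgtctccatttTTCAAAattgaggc
Top2a: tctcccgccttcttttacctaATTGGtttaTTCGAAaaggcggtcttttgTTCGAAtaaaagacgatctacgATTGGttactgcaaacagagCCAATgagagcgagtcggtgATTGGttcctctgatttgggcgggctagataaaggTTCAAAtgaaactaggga

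The libraries held 68803249 to 76581954 reads in Control and 82227711 to 88745366 in LS1, with no overlap in depth between the groups. Values are normalized counts, the reads of a gene divided by 1 size factor per library. They were compared on log2(normalized count + 1) with limma, across 19308 genes (mean read count 20 or more), and fold changes are LS1 minus Control on that scale. A first principal component over the same 19308 genes (35.1% of the variance) placed LS1 replicate 3, at -4.29, between Control (-41.5 to -22.1) and the other LS1 libraries (43.7 and 50.1).

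All 40 members had a fitted log2 fold change below 0, against 49.3% of all genes tested. The median was -0.32, or 80.0% of the Control level, where the median over all genes tested was 0.01. None of the 40 passed an adjusted p of 0.05 in limma, a threshold that 0.0725% of genes tested passed. At an unadjusted p under 0.05, 18 of 40 members were lower in LS1, against 5.86% of genes tested. In 23 of 40 all LS1 libraries lay below all Control libraries, against 8.94% of genes tested and 9.35% of the 9378 genes at or above the level of the lowest member. DESeq2 on the recovered reads called 3 of 40, *Plk1*, *Mki67* and *Ube2c*, where it called 2.38% of genes tested, and the quasi-likelihood test of edgeR called 0. At an unadjusted p under 0.05 edgeR had 22 of 40 members lower in LS1, against 5.90% of genes tested. With 3 mice per group the difference in a single gene was thus mostly not resolved, while its direction was shared. The 40 genes were measured in the same 6 libraries and are not independent replicates. They were chosen with earlier results of these data known, so their shares beside those of all genes tested are a description only.

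**Figure D2:**
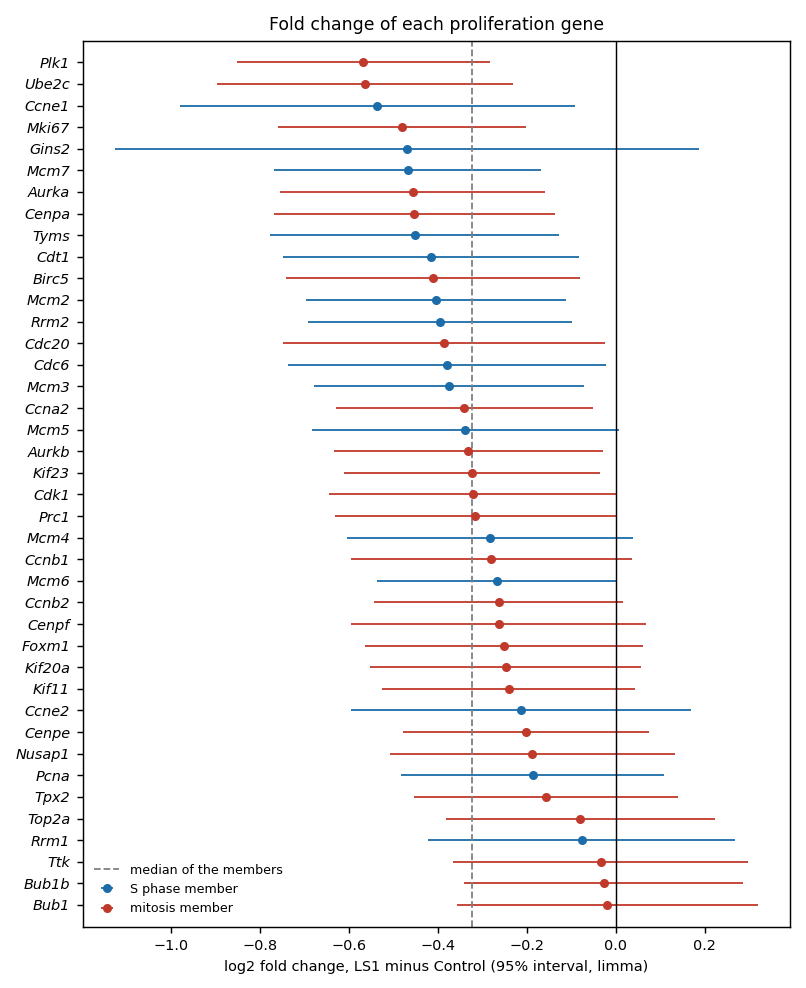
Points are the fitted log2 fold changes of the 40 members, LS1 minus Control, with 95% intervals from limma (n = 3 per group), blue for S phase and red for mitosis, and the dashed line is their median of -0.32. Every point lies below 0, from -0.57 for *Plk1* to -0.02 for *Bub1*, and many intervals reach 0.

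The count of members at an unadjusted p under 0.05 rested in part on Control replicates 1 and 2. It was 8 without Control replicate 1, where 4.07% of genes tested were lower at that p, and 11 without Control replicate 2, where 3.76% were. The count was 21 without Control replicate 3 (4.36% of genes tested). Without LS1 replicates 1, 2 and 3 it was 17, 17 and 18 (5.62%, 5.09% and 7.55%). Control replicate 1 was the highest library for 30 of 40 members. The lowest library was LS1 replicate 1 for 20 members, LS1 replicate 3 for 14, LS1 replicate 2 for 4 and Control replicate 3 for 2. The median of the members relative to the Control mean was 0.13, -0.02 and -0.09 in Control replicates 1, 2 and 3, and -0.39, -0.23 and -0.29 in LS1 replicates 1, 2 and 3. LS1 replicate 3, which lay nearer to Control over the genes tested, was here between the other LS1 libraries.

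**Figure D3:**
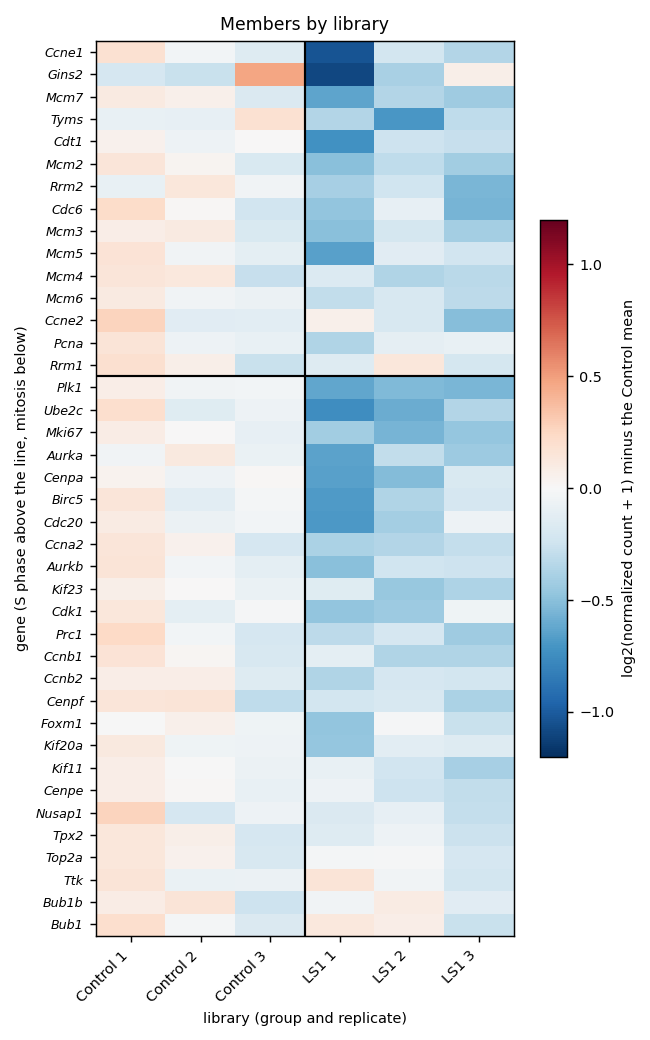
Each row is a member (S phase above the line, mitosis below) and each column a library, coloured by log2(normalized count + 1) minus the Control mean of that gene. Blue prevails in the LS1 columns, in which the member medians are -0.39, -0.23 and -0.29. The groups overlap in 17 members, among them *Bub1*, *Bub1b* and *Ttk* at the bottom.

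Among the 9 licensing genes, which load or activate the replicative helicase, the median log2 fold change was -0.38. Of these, 5 were lower at an unadjusted p under 0.05, against 5.86% of genes tested. *Mcm7* (ENSMUSG00000029730, chromosome 5 from 138164583 to 138172422), a helicase subunit, had 27978, 27219 and 23137 normalized counts in Control and 16832, 20452 and 19341 in LS1. Its groups did not overlap, and its log2 fold change was -0.47 (SE 0.14, with an adjusted p of 0.237 in limma). On the other strand *Mcm7* shares 321 exon bases with *Ap4m1*, at a mean of 2058 normalized counts, and 64 with *Cops6*, at a mean of 4462 and a log2 fold change of -0.18. *Mcm2*, another subunit, had 21942, 20287 and 17508 normalized counts in Control and 14025, 16086 and 14887 in LS1, also without overlap, with a log2 fold change of -0.40 (adjusted p of 0.272 in limma). The other subunits ran from -0.37 in *Mcm3* to -0.27 in *Mcm6*, and the loaders *Cdt1* and *Cdc6* were at -0.42 and -0.38.

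*Gins2*, a subunit of the complex that activates the helicase, varied most. It had 1075, 1027 and 1712 normalized counts in Control and 581, 942 and 1300.2 in LS1. The high library was Control replicate 3 and the groups overlapped, so the log2 fold change of -0.47 carried a standard error of 0.30 and ran from -0.74 to -0.16 when 1 library was left out. It was also the lowest member per exon length, at 269.96 normalized counts per kilobase. *Gins2* shares 2758 exon bases with *Gse1* on the other strand, which had a log2 fold change of -0.43. The mean of *Gse1* was 2130 normalized counts beside 1106 for *Gins2*. Whether reads of *Gse1* entered the *Gins2* value was not tested.

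The 4 genes of DNA synthesis had a median log2 fold change of -0.29. At an unadjusted p under 0.05, 2 of them were lower, against 5.86% of genes tested. *Rrm2*, the small subunit of ribonucleotide reductase and the member whose amount is known to follow S phase, had 37431, 43517 and 38440.05 normalized counts in Control and 30048, 33686 and 27153 in LS1. Its groups did not overlap, its log2 fold change was -0.40 (adjusted p of 0.284 in limma), and per exon length it was the highest member, at 12647 normalized counts per kilobase. *Rrm1*, the large subunit of the same enzyme, was at -0.08 with a 95% interval from -0.42 to 0.27. *Tyms*, the thymidylate synthase, was at -0.45 without overlap. Differences in fold change among these enzymes were not tested.

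*Pcna*, the clamp that holds DNA polymerase on its template, had 15732, 13513 and 13301 normalized counts in Control and 11009, 13114 and 13279.5 in LS1. All LS1 values lay below all Control values, but LS1 replicate 3 and Control replicate 3 nearly met, and the log2 fold change was -0.19 (adjusted p of 0.582 in limma). The pseudogene *Pcna-ps2* was counted at a mean of 8539.9 normalized counts beside 13325 for *Pcna*, and its log2 fold change was -0.23. Reads of such near copies can be split between them, so the *Pcna* value is uncertain. *Ccnb1* and *Ccnb2* also have named pseudogenes, counted at means of 50.3 and 184 normalized counts.

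The cyclins and *Cdk1* had a median log2 fold change of -0.30. At an unadjusted p under 0.05, 2 of 6 were lower, against 5.86% of genes tested. *Ccne1*, cyclin E1 of the start of S phase, had 10688, 9195 and 8475 normalized counts in Control and 4577, 8079 and 7391 in LS1. The low library was LS1 replicate 1, the groups did not overlap, and the log2 fold change was -0.54 (adjusted p of 0.311 in limma), which ran from -0.69 to -0.28 when 1 library was left out. *Ccna2*, cyclin A2, was at -0.34 without overlap, and *Ccne2* at -0.21 with overlap.

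*Cdk1*, the kinase that drives mitosis, had 11111, 9359 and 10029.8 normalized counts in Control and 7285, 7502 and 9774 in LS1. LS1 replicate 3 lay within the range of Control, and the log2 fold change was -0.32 (adjusted p of 0.387 in limma). *Ccnb1*, cyclin B1, had 4911, 4442 and 3835 normalized counts in Control and 4032, 3409 and 3399 in LS1. Here LS1 replicate 1 lay within the range of Control, and the log2 fold change was -0.28 (adjusted p of 0.443 in limma). The paper also measured *Ccnb1* by quantitative PCR in the growth plate alone, in mice of a later generation. There its level in LS1 was above that of Control, without a significant difference. The second B cyclin, *Ccnb2*, was at -0.26.

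The largest differences and the smallest were both among the 9 mitotic kinases and checkpoint genes, whose median was -0.39. *Plk1* (ENSMUSG00000030867, chromosome 7 from 122159439 to 122169873), polo-like kinase 1, had 3672, 3385 and 3391 normalized counts in Control and 2263, 2408 and 2378 in LS1. Each group was tight and the gap between them wide, with a log2 fold change of -0.57 (SE 0.13, with an adjusted p of 0.176 in limma and 0.00731 in DESeq2). It stayed between -0.59 and -0.53 whichever library was left out. The gene on its other strand that shares exon bases, *Gm44985*, had a mean of 20.6 normalized counts.

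*Ube2c* (ENSMUSG00000001403, chromosome 2 from 164769898 to 164778822), the ubiquitin-conjugating enzyme of the anaphase-promoting complex, had 6304, 4958 and 5232 normalized counts in Control and 3257, 3623 and 4288 in LS1. The groups did not overlap, and the log2 fold change was -0.56 (SE 0.15, with an adjusted p of 0.220 in limma and 0.0423 in DESeq2). It shares 592 exon bases with *Tnnc2* on the other strand, a muscle gene at a mean of 15.7 normalized counts. *Aurka* (ENSMUSG00000027496, chromosome 2 from 172356190 to 172370535), the aurora kinase of the spindle poles, had 6925, 7713 and 6735 normalized counts in Control and 4571, 5798 and 5259 in LS1. It too did not overlap, at -0.46 (SE 0.14, with an adjusted p of 0.247 in limma). *Birc5*, the survivin subunit of the chromosomal passenger complex, was at -0.41, *Cdc20*, an activator of the anaphase-promoting complex, at -0.39, and *Aurkb*, the kinase of the passenger complex, at -0.33.

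*Bub1*, *Bub1b* and *Ttk*, the kinases and kinase-like protein of the spindle checkpoint, were near 0. *Bub1* had 6167, 5259 and 4738 normalized counts in Control and 5864, 5671 and 4446 in LS1. *Bub1b* had 10073, 10542 and 7988 in Control and 9206, 10131 and 8606 in LS1. *Ttk* had 2786, 2371 and 2388 in Control and 2799.6, 2431 and 2159 in LS1. The groups overlapped widely in each, with log2 fold changes of -0.02, -0.03 and -0.03. The 95% intervals ran from -0.36 to 0.32 for *Bub1*, from -0.34 to 0.29 for *Bub1b* and from -0.37 to 0.30 for *Ttk*, so a difference of the size of the member median was not told from none. Whether these genes differed less than *Plk1* or *Ube2c* was not tested.

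Over the 9 kinetochore and spindle genes the median log2 fold change was -0.25. *Cenpa*, the histone of the centromere, was at -0.45 (adjusted p of 0.261 in limma) and *Kif23*, a motor of the central spindle, at -0.32, both without overlap and at an unadjusted p under 0.05. The kinesins *Kif20a* and *Kif11* were at -0.25 and -0.24, the microtubule bundler *Prc1* at -0.32 and the kinetochore proteins *Cenpf* and *Cenpe* at -0.26 and -0.20. *Nusap1* and *Tpx2*, which bind spindle microtubules, were at -0.19 and -0.16 with overlap. On the other strand *Kif20a* shares 1271 exon bases with *Cdc23*, at a mean of 7629 normalized counts beside 4671 for *Kif20a*. The log2 fold change of *Cdc23* was 0.04.

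*Mki67* (ENSMUSG00000031004, chromosome 7 from 135689784 to 135716361), the gene of the Ki-67 antigen by which dividing cells are commonly stained, had 104942, 99201 and 92177 normalized counts in Control and 73774, 66978 and 71469.9 in LS1. The groups were well apart, with a log2 fold change of -0.48 (SE 0.13, with an adjusted p of 0.220 in limma and 0.0275 in DESeq2). *Top2a*, topoisomerase II alpha, another gene commonly read as a mark of dividing cells, had 60291, 56722 and 47961 normalized counts in Control and 53755, 54328 and 47594 in LS1. Its groups overlapped, and the log2 fold change was -0.08 with a 95% interval from -0.38 to 0.22. These genes, both read as marks of division, thus gave different fold changes in the same libraries, a difference that was not itself tested. *Foxm1*, a transcription factor of mitosis genes, was at -0.25.

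**Figure D4:**
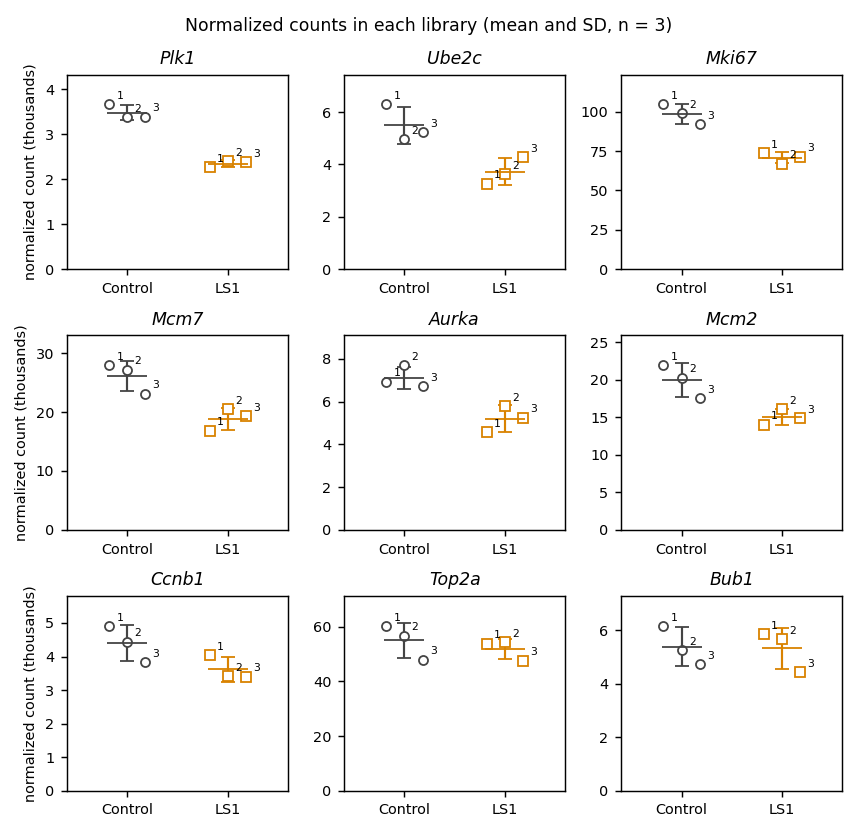
Open symbols are the normalized counts of 9 members in each library, numbered by replicate, with the mean and SD of each group (n = 3). The LS1 libraries lie below the Control libraries in *Plk1*, *Ube2c*, *Mki67*, *Mcm7*, *Aurka* and *Mcm2*, and the groups overlap in *Ccnb1*, *Top2a* and *Bub1*.

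By phase, the S phase members had a median log2 fold change of -0.38 with 10 of 15 not overlapping, and the mitosis members -0.28 with 13 of 25, against 8.94% of genes tested. The 7 members without overlap but at an unadjusted p of 0.05 or more were *Mcm5*, *Prc1*, *Mcm6*, *Ccnb2*, *Kif20a*, *Kif11* and *Pcna*. Strand of the counting is not given in the sources used here, and 10 members share exon bases with a gene of the other strand. The 30 members that do not had a median of -0.30, and 17 of them did not overlap, beside the same 8.94%.

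Further genes of the same steps, from lists drawn up from textbook roles, were lower in LS1 in most cases. Of them 0 passed the adjusted threshold of limma. The lists were chosen with earlier results of these data known. Their genes were measured in the same 6 libraries as the members, so they are not separate evidence. Of 40 other S phase genes, 37 were below 0 with a median of -0.27, against 49.3% of genes tested. At an unadjusted p under 0.05, 10 were lower, against 5.86% of genes tested, and DESeq2 called 3, against 2.38%. *Gmnn*, the licensing inhibitor geminin, had 6339, 5518 and 6266 normalized counts in Control and 4089, 3740.3 and 4210.4 in LS1, a log2 fold change of -0.59 (adjusted p of 0.159 in limma). *Lig1*, the ligase that joins new DNA fragments, was at -0.57 and *Clspn*, the replication checkpoint protein claspin, at -0.48. All 3 were without overlap.

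Of 50 other mitosis genes, 44 were below 0 with a median of -0.19, against 49.3% of genes tested. At an unadjusted p under 0.05, 15 were lower, against 5.86% of genes tested, and DESeq2 called 2, against 2.38%. *Spc24*, a subunit of the NDC80 complex of the kinetochore, had 2590.1, 2410.1 and 3015 normalized counts in Control and 997, 1509 and 1141 in LS1. The groups lay far apart, and its log2 fold change of -1.15 (SE 0.18, with an adjusted p of 0.0605 in limma) was the lowest of these lists. *Cdc25b*, the phosphatase that activates Cdk1, was at -0.67 and *Tacc3*, a spindle protein, at -0.37, both without overlap.

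Of 16 regulators of the E2F and MYB families and their partners, 12 were below 0 with a median of -0.13, against 49.3% of genes tested. At an unadjusted p under 0.05, 4 were lower, against 5.86% of genes tested. At that p 1, *E2f5*, was higher, against 1367 of the 19308 genes tested. *Mybl2*, the B-Myb factor of mitosis genes, had 8139, 8901 and 9633 normalized counts in Control and 4121, 6623 and 6397 in LS1, a log2 fold change of -0.67 (adjusted p of 0.222 in limma and 0.0442 in DESeq2). The activators *E2f1* and *E2f2* were at -0.63 and -0.62 without overlap.

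Marker genes of several cell types also had a median fold change below 0. In bulk RNA, fewer dividing cells cannot be told apart from less RNA of the proliferation genes per cell. All 11 tested erythroid markers were below 0, with a median log2 fold change of -0.54. Their summed level was 350627 to 498671 normalized counts in Control and 230122 to 386232 in LS1. Relative to the Control mean their median was 0.24, 0.02 and -0.24 in Control replicates 1, 2 and 3 and -1.02, -0.20 and -0.48 in LS1 replicates 1, 2 and 3. From Control replicate 1 at the top to LS1 replicate 1 at the bottom the libraries stood as they did for the members, except that Control replicate 3 and LS1 replicate 2 changed places. This likeness in order was not tested. The erythroid marker *Ahsp* was not analysed here.

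Of 13 B cell progenitor markers, 12 were below 0 with a median of -0.48, and their summed level was 63928 to 67039 normalized counts in Control and 36749 to 57766 in LS1. Here LS1 replicate 2 was the lowest library, at -1.02 relative to the Control mean. For the members it was the highest LS1 library, at -0.23. All 7 tested muscle markers were below 0 with a median of -0.76, at summed levels of 8634 to 21195 in Control and 4038 to 12680.3 in LS1. Relative to the Control mean the muscle median, too, was highest in Control replicate 1 (0.73) and lowest in LS1 replicate 1 (-1.88). Both muscle and erythroid levels overlapped between the groups, and the muscle marker *Tnnc2* was under the limit on reads.

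Markers of other cell types had medians above 0. Of 14 chondrocyte markers, 13 were above 0 with a median of 0.44, and their summed level was 2599693 to 2960984 normalized counts in Control and 3300288 to 3822550.1 in LS1. Of 10 macrophage markers 9 were above 0 with a median of 0.26, of 9 neutrophil progenitor markers 7 with a median of 0.23, and of 9 osteoblast markers 6 with a median of 0.12. Their summed levels were 32649 to 43642 in Control and 41358 to 46669 in LS1 for macrophages, 144078 to 199157 and 158960.2 to 217386 for neutrophil progenitors, and 2709909 to 3322486 and 2498090.3 to 2957071 for osteoblasts. The osteoblast markers were mixed. Among them *Bglap* at -1.10 and *Col1a1* at -0.19 were lower in LS1 without overlap, and *Runx2* at 0.59 was higher without overlap. Cartilage, bone and marrow, the labelled tissues, were thus all present in every library, and no tested marker was at 0 in any of them. The part of these markers in the result was not tested.

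**Figure D5:**
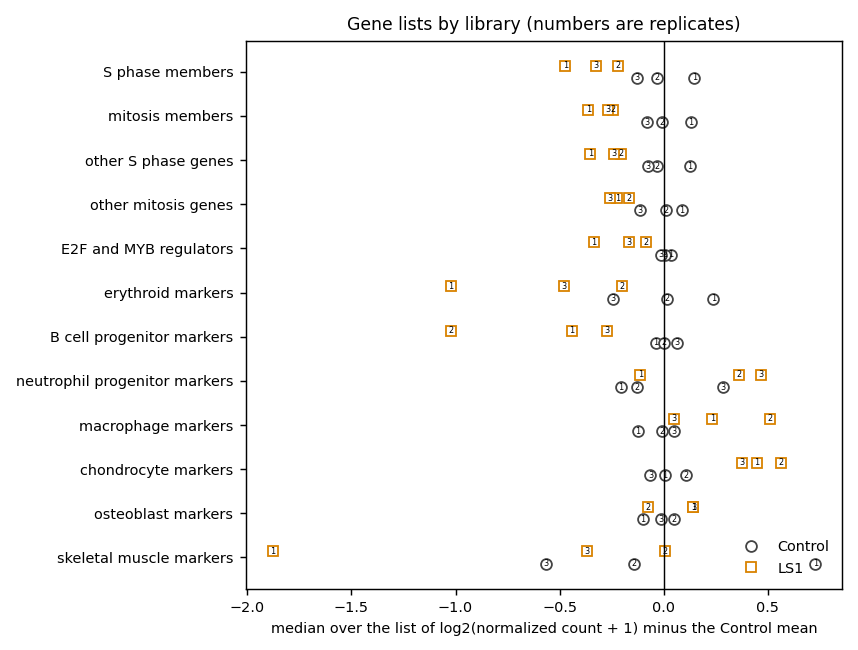
Symbols give, for each library (numbers are replicates), the median over a gene list of log2(normalized count + 1) minus the Control mean, with circles for Control and squares for LS1. The S phase and mitosis members lie lower in all 3 LS1 libraries, as do the B cell progenitor markers, the erythroid medians overlap between the groups, and the chondrocyte medians of LS1 (0.38 to 0.57) lie above those of Control (-0.06 to 0.11).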

How the data were processed

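RNA from 3 Control and 3 LS1 mice was sequenced, and GEO's labels set the groups. HISAT2 2.0.2 aligned the reads to GRCm38 (Ensembl release 84), featureCounts 1.4.6 counted them and DESeq2 was used, per the labels and the study's methods. The deposited signal is a gene's count over the size factor of its library, and no genes were removed. Reads were recovered by division, and 100% of values were whole within 1e-06. GEO's design text names the mice of each group biological replicates, and no library repeated another (chi-square per degree of freedom 38.6 to 145 within groups).

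The test was that of limma 3.58.1 (R 4.3.3), run on log2(value + 1) for genes averaging at least 20 reads, with a variance trend, robust moderation and Benjamini-Hochberg adjustment over all 19308, two-sided at 0.05. The pseudocount of 1 understates fold changes of low genes only. With 3 mice per group an exact permutation test cannot go below p = 0.1. Alternatives were edgeR 4.0.16, DESeq2 1.42.0, voom, other scalings, pseudocounts and filters, a replicate block and each library left out. The scripts were tested on simulated data. The members and lists were chosen with earlier results of these data known. Values in every library are printed for *Mki67*, *Top2a*, *Pcna*, *Mcm2*, *Ccnb1* and *Cdk1*, for the 5 members with the smallest p, the 3 largest and 3 smallest fold changes, and the highest and lowest per kilobase, with up to 3 genes of smallest p per further list. Symbols and coordinates came from GENCODE M21, a later release, and 98.9% of identifiers had a symbol.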

Additional observations from a re-analysis of the deposited data

How the results depend on the processing

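All 40 members stayed below 0 under 13 of 16 alternatives, and the median of the members, of the S phase members and of the mitosis members kept its sign under all 16. Without the members that share exon bases with an opposite-strand gene, a choice made after the data were seen, the member median was -0.30. The number of genes called was 14 in limma, 7 with edgeR, 459 with DESeq2, 45 with no filter on reads, 9 with a mean of at least 100 reads, and 5 to 324 with 1 library left out. It was 324 without LS1 replicate 3, 46 without LS1 replicate 1, 9 without Control replicate 1 and 5 without Control replicate 2. The cause was not tested. Members called were 3 with DESeq2 and 0 under every other alternative. With 1 library left out, the log2 fold change ran from -0.21 to 0.020 for *Rrm1*, from -0.13 to 0.057 for *Ttk*, from -0.15 to 0.051 for *Bub1b* and from -0.11 to 0.11 for *Bub1*, and no other member changed sign. With 1 library left out an arm of 2 is tested with the spread pooled over both groups.

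A replicate block by the letter that opens the sample titles called 12 genes and 0 members, with 26 members lower at an unadjusted p under 0.05 in place of 18, where the share over all genes tested also went from 5.86% to 7.67%. The letters were not shown to pair the mice. Deviations from the group means correlated at 0.05, 0.02 and 0.22 within letters, and not every library correlated best with its own letter. Other settings left each call among the members as it was. Every member had at least 581 normalized counts in each library. The SD between the mice of a group was 1.65 to 27.7 times that of counting alone over the 80 member groups (40 members in Control and in LS1), with a median of 11.0 and the lowest value for *Plk1* in LS1.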

Other observations

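A few genes of the same steps did not share the direction of the rest, and they are named here after their values were seen. In the S phase list *Hells*, a chromatin remodeler, *Usp1*, a deubiquitinase of DNA repair, and *Tipin*, a replication fork protein, were above 0, at 0.14, 0.08 and 0.04 on the log2 scale. In the mitosis list *Anln* and *Ect2*, which act at the cleavage furrow, were at 0.14 and 0.02, *Cep55*, which acts in the final cut between daughter cells, at 0.15, the kinase *Pbk* at 0.16 and the kinetochore subunit *Spc25* at 0.04, with the kinase *Melk* at 0 within rounding. Of the regulators, *Mybl1*, a MYB factor, was at 0.35, and *Lin54* and *Lin9*, of the MuvB core, were at 0.05 and 0.03. Their groups overlapped in every case. *E2f5*, a repressor of the E2F family, had 1188, 1074 and 897 normalized counts in Control and 1752, 1329 and 1287 in LS1. All LS1 values lay above all Control values, at a log2 fold change of 0.46 (adjusted p = 0.330 from limma), which did not pass the threshold.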
